A study of Mus musculus with 16 samples.

Results

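The transcripts of 37 lysosomal genes were followed in macrophages that had been sorted from mouse muscle as F4/80+ cells, F4/80 being a surface protein of mouse macrophages encoded by Adgre1. The 37 genes were taken by symbol, out of 24421 symbols in the count table, by a rule on their roles that uses no measured value. The members and the rule were nevertheless chosen with earlier results of these data known. They comprised 2 sorting receptors, 20 hydrolases with their cofactors (7 for oligosaccharides and glycogen, 6 for glycosaminoglycans, 7 for lipids and proteins), 7 membrane proteins, 5 subunits of the proton pump and the 3 MiT transcription factors, with the cathepsins left out. All 37 were in the table and all 37 passed the filter on low counts.

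Macrophages came from CTX-injected muscle of GLUD1 KO mice, CTX-injected muscle of WT mice, normal muscle of GLUD1 KO mice and normal muscle of WT mice, with 4 libraries in each group. The study asked how Glud1-deficient macrophages differ from WT macrophages at baseline and when muscle damage is at its peak. The injected agent is named only as CTX, the normal muscle is not described as mock-injected, and neither the driver nor the cell type of the Glud1 deletion, nor the age of the mice, is given in the sources used here. Whether each library came from a mouse of its own is not stated, so the p-values describe how far these libraries spread, which may be technical variation.

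Lysosomes are acidic organelles that break down material taken up by phagocytosis or delivered by autophagy, and macrophages, which clear dead cells, are rich in them. Most soluble hydrolases receive a mannose 6-phosphate tag in the Golgi and are carried to the organelle by receptors that recognise the tag, while the V-ATPase pumps protons to keep the interior acidic. Transcription factors of the MiT family, among them TFEB, TFE3 and MITF, bind a short palindromic element in the promoters of many lysosomal genes.

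That element contains the letters TCACGTGA, and the promoter windows of the 31 genes with an entry in the RefSeq promoter table (250 bases before to 50 bases after an annotated start, GRCm38.p6) were searched for it. Because the motif reads the same on both strands, 1 search covers both. It was present in 6 of the 31 genes (19.4%), namely Igf2r, Gla, Mcoln1, Cln3, Atp6v0d1 and Atp6v1a, against 2.11% of 10383 tested genes and 1.12% of all 27025 genes with windows of the same length. The shorter core CACGTG, which every TCACGTGA contains, was present in 11 of 31 (35.5%), against 11.5% of tested genes. The related TCATGTG, which holds neither of these and was searched on both strands, was present in 5 of 31 (16.1%), against 2.76%. M6pr, Asah1, Npc1, Atp6v0d2, Atp6v1b2 and Atp6v1h were not matched in the table. A match of letters is a description of the sequence and not evidence of binding. The element was already known from promoters of lysosomal genes, so the higher share of TCACGTGA here is not independent evidence about these genes.

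A total of 5 of these windows are shown, because they belong to the members with the motif that differed most between CTX-injected and normal muscle in WT. They are written 5′ to 3′ on the strand of the gene, with each TCACGTGA in capitals. The Igf2r window (chr17:12769657-12769956, minus strand) held 2 copies, beginning 49 and 8 bases before the start. The Atp6v1a window (chr16:44139210-44139509, minus strand) held 1 copy 132 bases before the start. The Gla window (chrX:134600956-134601255, minus strand) held 2 copies, 228 and 195 bases before the start. The Atp6v0d1 window (chr8:105566015-105566314, minus strand) held 1 copy 4 bases before the start. The Cln3 window (chr7:126583187-126583486, minus strand) belongs to the second of its annotated starts and held 1 copy 122 bases before it.
Igf2r: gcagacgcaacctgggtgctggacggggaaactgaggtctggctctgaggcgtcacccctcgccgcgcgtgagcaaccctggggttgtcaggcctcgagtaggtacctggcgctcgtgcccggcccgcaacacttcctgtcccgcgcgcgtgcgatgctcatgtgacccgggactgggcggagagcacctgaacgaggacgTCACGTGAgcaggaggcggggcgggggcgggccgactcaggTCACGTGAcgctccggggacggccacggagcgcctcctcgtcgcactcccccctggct
Atp6v1a: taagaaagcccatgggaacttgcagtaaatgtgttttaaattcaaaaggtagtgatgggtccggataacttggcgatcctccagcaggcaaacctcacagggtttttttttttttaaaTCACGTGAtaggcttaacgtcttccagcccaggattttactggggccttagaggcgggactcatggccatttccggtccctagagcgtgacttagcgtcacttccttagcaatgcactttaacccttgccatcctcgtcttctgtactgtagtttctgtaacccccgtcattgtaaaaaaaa
Gla: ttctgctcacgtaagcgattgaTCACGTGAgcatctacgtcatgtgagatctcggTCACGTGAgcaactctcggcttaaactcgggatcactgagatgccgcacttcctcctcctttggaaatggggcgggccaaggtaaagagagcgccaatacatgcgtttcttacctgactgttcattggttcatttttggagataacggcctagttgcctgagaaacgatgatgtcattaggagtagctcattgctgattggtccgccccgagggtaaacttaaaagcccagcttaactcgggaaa
Atp6v0d1: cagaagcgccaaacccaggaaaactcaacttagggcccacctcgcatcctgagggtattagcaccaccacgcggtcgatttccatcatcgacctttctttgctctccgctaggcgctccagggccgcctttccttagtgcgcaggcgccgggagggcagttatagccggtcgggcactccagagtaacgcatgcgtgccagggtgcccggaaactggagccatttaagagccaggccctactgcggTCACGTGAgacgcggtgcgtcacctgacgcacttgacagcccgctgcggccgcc
Cln3: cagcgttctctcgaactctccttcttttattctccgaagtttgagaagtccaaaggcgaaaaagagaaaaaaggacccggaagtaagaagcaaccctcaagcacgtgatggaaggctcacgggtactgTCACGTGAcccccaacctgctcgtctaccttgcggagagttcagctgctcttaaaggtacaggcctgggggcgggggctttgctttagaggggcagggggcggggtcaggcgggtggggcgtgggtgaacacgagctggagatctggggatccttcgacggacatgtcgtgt

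Library totals were 17051892 to 23097420 counts. Levels are in CPM, the counts of a gene relative to the total of its library, scaled by TMM factors, which were 0.76 to 0.87 in CTX-injected and 1.13 to 1.34 in normal muscle, and calls are those of edgeR's quasi-likelihood test at an adjusted p of at most 0.05 over 13649 genes. All 8 macrophage markers on a fixed list were detected in every group, Adgre1 at 675.6 to 1167 CPM in CTX KO, 617.1 to 1254 CPM in CTX WT, 509.2 to 571.9 CPM in normal KO and 523.6 to 698.3 CPM in normal WT libraries. The macrophage markers themselves moved with injury in both directions, with 5 of 8 called higher and 2 lower in KO and 6 higher and 2 lower in WT. The sum of these markers was 21430 to 25640 CPM in CTX KO and 28480 to 35580 CPM in CTX WT, against 10230 to 16500 CPM in normal KO and 12020 to 19080 CPM in normal WT libraries. Within CTX-injected muscle, Lyz2 was at 7324 to 9380 CPM in KO and 13510 to 15910 CPM in WT. Fcgr1 was at 372.9 to 389.1 CPM in KO and 263.2 to 353 CPM in WT. Of the 8 markers, 4 had a positive and 4 a negative log2 difference KO over WT there, and edgeR called 0. Csf1r, the receptor of the macrophage growth factor M-CSF, was at 1582 to 1742 CPM in CTX KO and 1572 to 1815 CPM in CTX WT, against 2562 to 3006 CPM in normal KO and 2754 to 3720 CPM in normal WT libraries. Itgam, which encodes the integrin CD11b, was at 2278 to 2679 CPM in CTX KO and 2327 to 3194 CPM in CTX WT, against 543.5 to 681.2 CPM in normal KO and 553.8 to 736.8 CPM in normal WT libraries. Markers of other cells moved with injury too, and the part of any of these markers in the results below was not tested. The 8 dendritic cell markers summed to 55.1 to 89.4 CPM in CTX KO and 77.0 to 99.3 CPM in CTX WT, against 520.5 to 818 CPM in normal KO and 424.6 to 606.7 CPM in normal WT libraries. The 9 neutrophil markers in the table, of 10 listed, summed to 223 to 1117 and 119 to 354 CPM in CTX KO and CTX WT, against 239 to 6617 and 287 to 4498 CPM in normal KO and normal WT. The 8 endothelial markers summed to 63.0 to 81.1 and 63.1 to 77.2 CPM in CTX KO and CTX WT, against 172 to 241 and 127 to 183 CPM in normal KO and normal WT. The 7 fibroblast markers summed to 54.3 to 68.9 and 76.1 to 100.3 CPM in CTX KO and CTX WT, against 187 to 890.1 and 226.5 to 549 CPM in normal KO and normal WT. The 10 muscle fibre markers and the 5 of 6 B cell markers in the table summed to at most 9.40 CPM in each CTX library, against at least 11.8 CPM in each normal library, and T and NK cell markers other than Il7r summed to at most 6.96 CPM there, against at least 27.0 CPM in normal muscle. Il7r itself was at 181.8 to 261.4 CPM in CTX and 14.03 to 48.4 CPM in normal libraries, Pax5 was at 0 in both CTX groups and Ncr1 in CTX WT. Whole-gene counts of Glud1 do not check the genotype labels, because the deleted part is not given, and its log2 difference KO over WT was -0.14 in CTX-injected and -0.09 in normal muscle.

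Of the 37 lysosomal genes, 23 rose and 5 fell in CTX-injected against normal muscle in KO, and 22 rose and 5 fell in WT, with scaling by library totals alone giving 13 higher and 13 lower in KO and 11 higher and 13 lower in WT. With TMM factors, 33.3% of all genes tested were called higher and 40.2% lower in KO (73.6% in all). In WT 33.3% were higher and 39.4% lower (72.7% in all). The median log2 difference of the members was 0.61 in KO and 0.52 in WT, against -0.16 and -0.15 over all genes. The same 27 members were called in the same direction in both genotypes, 22 of them higher and 5 lower, Neu1 was called in KO alone, and 9 were called in neither. Scaling by library totals alone, which leaves out the TMM factors, moved the median of all genes by -0.61 in KO and by -0.62 in WT. Of all 13649 genes it called 1920 higher and 8398 lower in KO, and 1944 higher and 8349 lower in WT. Its member counts are to be read against these. Under it Igf2r, M6pr, Gla, Gusb, Lamp1, Npc1, Atp6v0d1, Atp6v1a, Atp6v1b2, Atp6v1h and Mitf were still called higher in both genotypes. In bulk RNA of sorted cells, a change in how many cells of a type were present and a change in RNA per cell cannot be told apart.

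**Figure D1:**
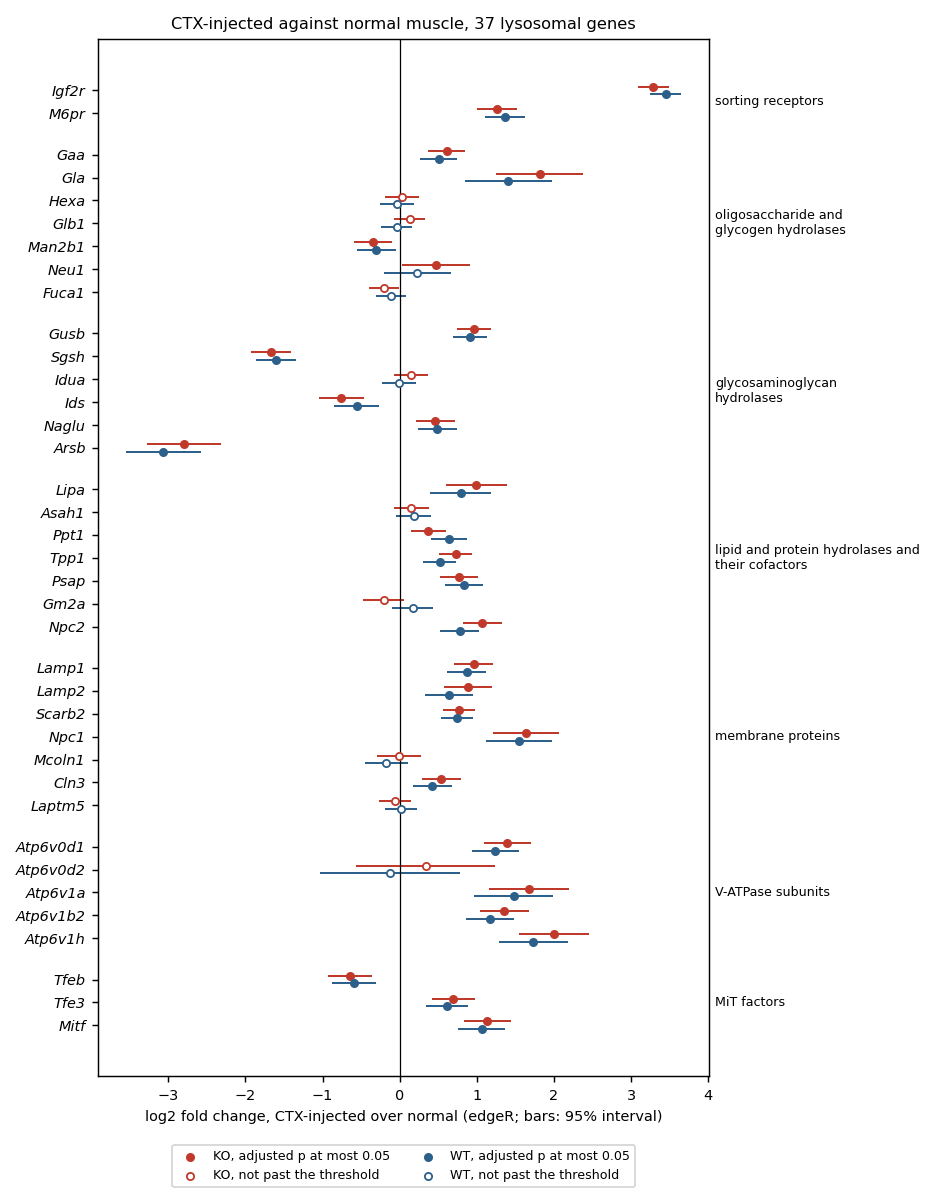
Log2 fold change of CTX-injected over normal muscle for the 37 genes by role, in KO (red, upper of each pair) and WT (blue, lower), with 95% intervals from edgeR; filled points have an adjusted p of at most 0.05. Igf2r lies farthest to the right (3.29 in KO, 3.45 in WT) and Arsb farthest to the left (-2.80 in KO, -3.06 in WT). With scaling by library totals alone, 7 members with a filled point to the right of 0 turn negative where filled, in at least 1 genotype. None of those 7 is then called lower. Some open points to the right of 0 turn negative too, and Hexa, Glb1, Idua and Asah1 are then called lower in KO.

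The largest rise was in Igf2r, the cation-independent mannose 6-phosphate receptor, which carries tagged hydrolases from the Golgi and also binds the growth factor IGF2. Igf2r (ENSMUSG00000023830.14, minus strand of chromosome 17 from 12682406 to 12769664) was at 242, 233, 211 and 216 CPM in CTX KO libraries and 267, 255, 256 and 224 CPM in CTX WT libraries. It was at 21.3, 24.4, 24.7 and 21.9 CPM in normal KO libraries and 24.4, 23.4, 21.6 and 22.3 CPM in normal WT libraries. All 8 CTX libraries lay far above all 8 normal libraries, and the spread within each group was small. The difference was 9.77-fold in KO (log2 3.29, SE 0.09, edgeR adjusted p = 1.47e-12) and 10.9-fold in WT (log2 3.45, SE 0.09, edgeR adjusted p = 7.64e-13). The span of Igf2r overlaps that of the antisense RNA Airn, with no shared exon in the annotation, and the library kit keeps no strand information.

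M6pr, the smaller cation-dependent receptor of the same tag, was at 597, 633, 568 and 544 CPM in CTX KO and 624, 628, 686 and 607 CPM in CTX WT libraries. In normal muscle M6pr was at 253, 214, 299 and 212 CPM in KO and 227, 291, 239 and 232 CPM in WT libraries. The groups did not overlap in either genotype, and the difference was log2 1.26 in KO and 1.36 in WT (SE 0.12 each, edgeR adjusted p = 1.88e-07 and 8.08e-08). Per kilobase of exon, M6pr was the more abundant receptor in every group, at 141, 153, 58.6 and 59.3 CPM per kb in CTX KO, CTX WT, normal KO and normal WT, against 24.2, 26.9, 2.48 and 2.46 CPM per kb for Igf2r. Igf2r had the lowest level per kilobase of all 37 genes in normal muscle and rank 24 in CTX-injected muscle.

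**Figure D2:**
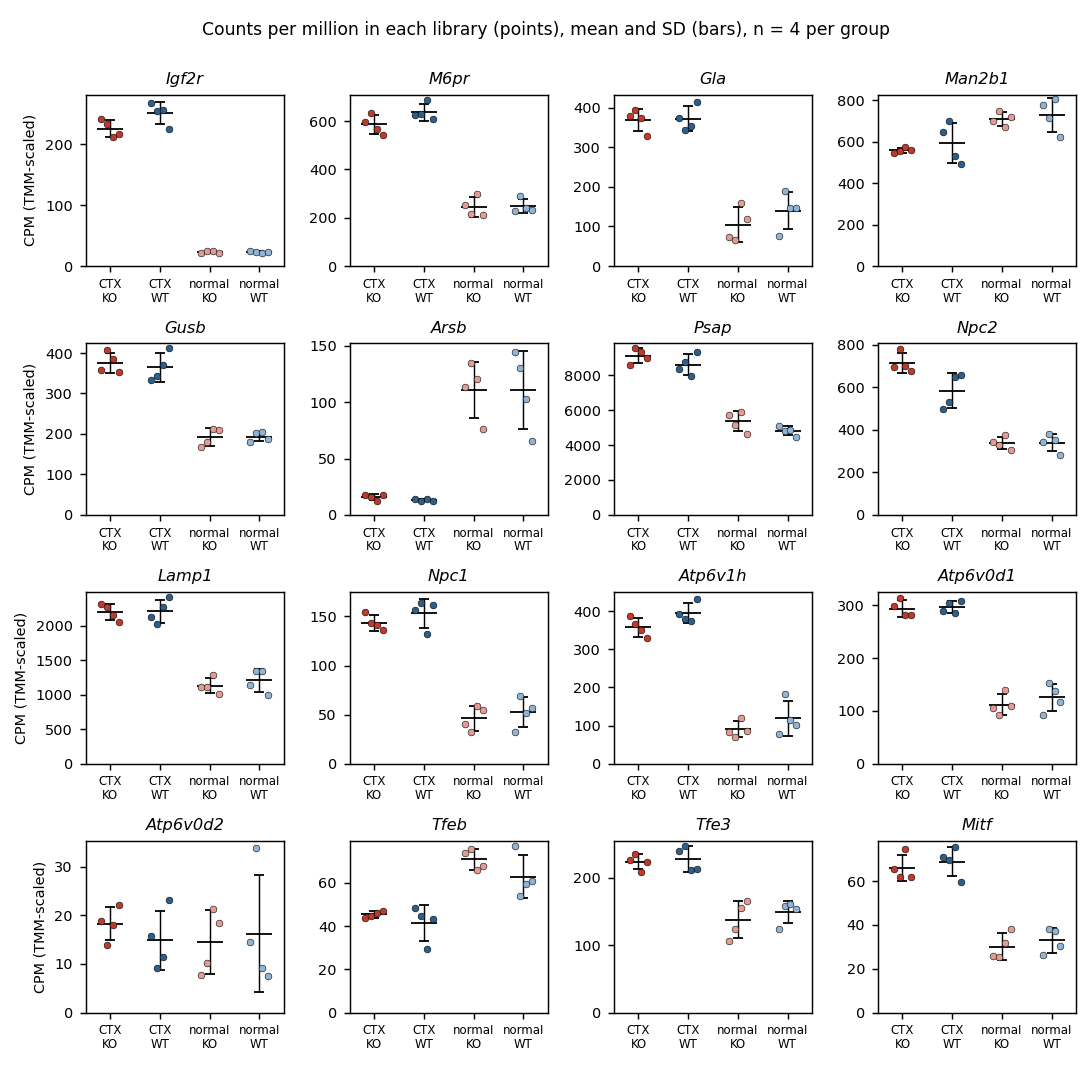
TMM-scaled CPM of 16 of the 37 genes in each library (points), with the mean and SD of each group (bars, n = 4), CTX KO and CTX WT to the left of normal KO and normal WT. Igf2r and Atp6v1h stand clear of their normal groups, Arsb and Tfeb lie lower in CTX-injected muscle, and Atp6v0d2 overlaps across all 4 groups.

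Among the 7 hydrolases of oligosaccharides and glycogen, Gaa and Gla rose in both genotypes, Man2b1 fell in both, Neu1 rose in KO, and Hexa, Glb1 and Fuca1 were not called in either. Gla, alpha-galactosidase A, which removes terminal galactose from glycolipids, was at 379, 393, 373 and 329 CPM in CTX KO and 373, 344, 354 and 415 CPM in CTX WT libraries. In normal muscle it was at 73.5, 66.7, 160 and 118 CPM in KO and 75.4, 190, 147 and 147 CPM in WT libraries. CTX and normal libraries did not overlap, although the normal ones spread widely, and the difference was log2 1.82 in KO (SE 0.27, edgeR adjusted p = 1.58e-05) and 1.41 in WT (SE 0.26, edgeR adjusted p = 0.000172). Gaa, the acid alpha-glucosidase that degrades glycogen, averaged 166 ± 8.08 CPM in CTX KO and 156 ± 16.8 CPM in CTX WT, against 109 ± 12.4 CPM in normal KO and 110 ± 16 CPM in normal WT (SD, n = 4 each). Its log2 difference was 0.61 in KO and 0.51 in WT, and 0.0050 in KO and -0.11 in WT, called in neither, when libraries were scaled by totals alone.

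Man2b1, the lysosomal alpha-mannosidase, was at 544, 557, 573 and 563 CPM in CTX KO and 648, 700, 532 and 494 CPM in CTX WT libraries. It was at 699, 749, 671 and 720 CPM in normal KO and 778, 715, 808 and 623 CPM in normal WT libraries. The KO groups did not overlap and the WT groups did. The fall was small, log2 -0.34 in KO (SE 0.12, edgeR adjusted p = 0.0151) and -0.30 in WT (SE 0.12, edgeR adjusted p = 0.03), and the WT call was lost when CTX WT library 3 or 4, or normal WT library 2 or 5, was left out (-0.22 to -0.28). Neu1, the sialidase that removes terminal sialic acid, averaged 214 ± 30.7 CPM in CTX KO and 217 ± 10.2 CPM in CTX WT, against 154 ± 55.3 CPM in normal KO and 186 ± 37.4 CPM in normal WT. Its KO call was at the threshold (log2 0.47, edgeR adjusted p = 0.0489), its KO groups overlapped, and leaving out CTX KO library 1, 2 or 3, any CTX WT library, or normal KO library 1 or 2 ended the call, with log2 values of 0.35 to 0.52.

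Hexa, the alpha chain of beta-hexosaminidase, had log2 differences of 0.03 in KO and -0.03 in WT, with 95% intervals of -0.19 to 0.25 and -0.26 to 0.19. Glb1, the lysosomal beta-galactosidase, had 0.13 in KO and -0.04 in WT. Fuca1, the alpha-fucosidase, had -0.20 in KO (edgeR adjusted p = 0.0601), where its groups did not overlap, and -0.11 in WT, and it was called lower in KO without normal KO library 5 (-0.25) or normal WT library 6 (-0.20). These 3 genes were called lower in both genotypes when libraries were scaled by totals alone.

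The 6 hydrolases of glycosaminoglycans, the sugar chains of proteoglycans, were divided. Arsb, Sgsh and Ids fell in both genotypes, Gusb and Naglu rose in both, and Idua was not called in either. When libraries were scaled by totals alone, Gusb held its direction, Naglu turned negative with no call, and Idua was called lower in both genotypes. Arsb, the sulfatase that acts on dermatan and chondroitin sulfate, showed the largest fall of the 37. Arsb (chromosome 13 from 93771630 to 93943016, plus strand) was at 17.7, 15.5, 12.6 and 18.1 CPM in CTX KO and 14.4, 12.4, 14.1 and 12.1 CPM in CTX WT libraries. It was at 113, 134, 120 and 75.9 CPM in normal KO and 144, 130, 103 and 65.4 CPM in normal WT libraries. Every CTX library was below every normal library, and the normal libraries of highest number, 5 in KO and 6 in WT, were the lowest of their groups. Normal KO library 5 and normal WT libraries 5 and 6 came from female mice by Xist and Y-linked transcripts. They were below every normal library from males, and the part of sex in this spread was not tested. The level in CTX-injected muscle was 0.144 of that in normal muscle in KO (log2 -2.80, SE 0.22, edgeR adjusted p = 2.89e-08) and 0.12 in WT (log2 -3.06, SE 0.23, edgeR adjusted p = 1.28e-08).

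Sgsh, the sulfamidase of heparan sulfate, averaged 5.44 ± 0.505 CPM in CTX KO and 5.15 ± 0.0829 CPM in CTX WT, against 17.3 ± 0.828 CPM in normal KO and 15.6 ± 2.33 CPM in normal WT, log2 -1.67 in KO and -1.60 in WT. Ids, the iduronate sulfatase that acts on dermatan and heparan sulfate, averaged 60.0 ± 12.9 CPM in CTX KO and 68.2 ± 2.28 CPM in CTX WT, against 102 ± 16 CPM in normal KO and 100.5 ± 8.81 CPM in normal WT. Its log2 difference was -0.76 in KO and -0.56 in WT, and neither gene's groups overlapped. Arsb, Sgsh and Ids are the 3 sulfatases among the 37, a shared trait seen after their values were known. Other lysosomal sulfatase genes did not move as one. Galns, which acts on keratan and chondroitin sulfate, rose (log2 1.41 in KO, 1.67 in WT), Arsg fell (-1.04 in KO, -1.25 in WT), and Arsa was not called in KO (-0.04) and was called lower in WT (-0.27). Sumf1, whose enzyme activates all sulfatases, rose by log2 0.47 in KO and 0.57 in WT.

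Gusb, the beta-glucuronidase, was at 359, 406, 385 and 353 CPM in CTX KO and 333, 344, 369 and 412 CPM in CTX WT libraries. In normal muscle it was at 167, 180, 213 and 209 CPM in KO and 180, 202, 204 and 188 CPM in WT libraries. No CTX library came near a normal one, and the difference was log2 0.97 in KO and 0.91 in WT (SE 0.10 each, edgeR adjusted p = 6.2e-07 and 1.16e-06). Naglu, an exoglycosidase of heparan sulfate, had log2 differences of 0.46 in KO and 0.49 in WT. Idua, the alpha-L-iduronidase, was at 47.3 ± 1.95 CPM in CTX KO and 45.1 ± 3.90 CPM in CTX WT, against 42.9 ± 5.55 CPM in normal KO and 45.3 ± 4.92 CPM in normal WT, and 6.3% of its exon length overlaps exons of Dgkq and Slc26a1 on the other strand.

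Of the 7 hydrolases and cofactors for lipids and proteins, Lipa, Ppt1, Tpp1, Psap and Npc2 rose in both genotypes and Asah1 and Gm2a were not called in either. When libraries were scaled by totals alone, Psap (log2 0.16 in KO, 0.22 in WT), Ppt1 (-0.25 in KO, 0.02 in WT) and Tpp1 (0.12 in KO, -0.09 in WT) were called in neither genotype, and Lipa (0.19) and Npc2 (0.16) were not called in WT. Asah1 and Gm2a were called lower in both genotypes under that scaling. Psap, the precursor of the saposins that present lipids to hydrolases, was at 8588, 9572, 9329 and 9009 CPM in CTX KO and 8359, 8785, 7946 and 9351 CPM in CTX WT libraries. It was at 5738, 5166, 5886 and 4628 CPM in normal KO and 5115, 4816, 4880 and 4488 CPM in normal WT libraries. Every CTX library exceeded every normal one, and the log2 difference was 0.77 in KO and 0.84 in WT (SE 0.12 each, edgeR adjusted p = 2e-05 and 8.77e-06). Per kilobase of exon Psap was the most abundant of the 37 genes in all 4 groups, at 3325 and 3138 CPM per kb in CTX KO and CTX WT and 1951 and 1758 CPM per kb in normal KO and normal WT.

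Npc2, the soluble protein that hands cholesterol to NPC1 in the lysosome, was at 694, 782, 702 and 678 CPM in CTX KO and 496, 530, 647 and 659 CPM in CTX WT libraries. In normal muscle it was at 345, 330, 375 and 307 CPM in KO and 345, 383, 350 and 282 CPM in WT libraries. CTX and normal libraries were apart in both genotypes, and within CTX-injected muscle every KO library was above every WT library. The injury difference was log2 1.07 in KO (SE 0.12, edgeR adjusted p = 1.03e-06) and 0.78 in WT (SE 0.12, edgeR adjusted p = 2.87e-05). Ppt1, the enzyme that removes palmitate from proteins, was at 264, 278, 271 and 257 CPM in CTX KO and 292, 289, 321 and 294 CPM in CTX WT libraries. It was at 247, 222, 193 and 164 CPM in normal KO and 203, 183, 185 and 195 CPM in normal WT libraries. Its CTX libraries were the higher ones in each genotype, with log2 0.37 in KO (SE 0.11, edgeR adjusted p = 0.00556) and 0.64 in WT (SE 0.11, edgeR adjusted p = 6.66e-05). Ppt1 shares 3.51% of its exon length with exons of the antisense gene Cap1, whose level was 244.5 CPM in CTX KO and 241.5 CPM in CTX WT, against 122.4 CPM in normal KO and 122.9 CPM in normal WT.

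Lipa, the acid lipase of cholesteryl esters and triglycerides, averaged 428 ± 30.4 CPM in CTX KO and 437 ± 104 CPM in CTX WT, against 215 ± 34.9 CPM in normal KO and 253 ± 63.0 CPM in normal WT. Its log2 difference was 0.99 in KO and 0.79 in WT, where the groups overlapped because CTX WT library 3, at 311 CPM, was below normal WT library 3, at 323 CPM. Tpp1, a tripeptidyl peptidase, had 0.72 in KO and 0.52 in WT. Asah1, the acid ceramidase, had 0.15 in KO and 0.18 in WT. Gm2a, the GM2 activator that lifts gangliosides out of membranes, was at 809 ± 58.0 CPM in CTX KO and 878 ± 76.4 CPM in CTX WT, against 935 ± 177 CPM in normal KO and 783 ± 71.2 CPM in normal WT. Its KO difference of -0.21 was called lower, at -0.30, when normal KO library 5 was left out.

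Of the 7 membrane proteins, 5 rose in both genotypes, namely Lamp1, Lamp2, Scarb2, Npc1 and Cln3, and Mcoln1 and Laptm5 were not called in either. When libraries were scaled by totals alone, Lamp2 (log2 0.28 in KO, 0.04 in WT) and Scarb2 (0.16 in KO, 0.13 in WT) were called in neither genotype, Cln3 turned negative in both with no call, and Mcoln1 and Laptm5 were called lower in both. Lamp1, a heavily glycosylated coat protein of the lysosomal membrane, was at 2311, 2270, 2155 and 2049 CPM in CTX KO and 2129, 2024, 2268 and 2412 CPM in CTX WT libraries. In normal muscle it was at 1111, 1116, 1278 and 1013 CPM in KO and 1143, 1336, 1348 and 999 CPM in WT libraries. The groups were well apart, with log2 0.96 in KO and 0.87 in WT (SE 0.12 each, edgeR adjusted p = 2.89e-06 and 8.02e-06). Lamp2, its close relative with a role in chaperone-mediated autophagy, was at 1040, 942, 970 and 945 CPM in CTX KO and 969, 960, 1037 and 1029 CPM in CTX WT libraries. It was at 526, 510, 612 and 463 CPM in normal KO and 515, 841, 708 and 495 CPM in normal WT libraries. Normal WT libraries 3 and 5 came closest to the CTX range without entering it, and the difference was log2 0.88 in KO (SE 0.15, edgeR adjusted p = 6.3e-05) and 0.64 in WT (SE 0.15, edgeR adjusted p = 0.00107).

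Npc1, the membrane transporter that exports cholesterol from the lysosome, had the largest rise of this group. It was at 155, 143, 141 and 136 CPM in CTX KO and 156, 164, 132 and 162 CPM in CTX WT libraries, against 40, 31.9, 58.5 and 54.4 CPM in normal KO and 32.8, 69.1, 51.5 and 56.7 CPM in normal WT libraries. The lowest CTX library was well above the highest normal one, and the difference was log2 1.64 in KO and 1.55 in WT (SE 0.20 each, edgeR adjusted p = 2.55e-06 and 4.67e-06). Scarb2, the receptor that delivers glucocerebrosidase to lysosomes without the sugar tag, had log2 differences of 0.77 in KO and 0.74 in WT. Cln3, a membrane protein mutated in juvenile Batten disease, had 0.54 in KO and 0.42 in WT. Mcoln1, the calcium channel TRPML1, had -0.01 in KO and -0.17 in WT, with 95% intervals of -0.29 to 0.27 and -0.46 to 0.11. Laptm5, a lysosomal membrane protein of blood cells, was at 1495 ± 69.6 CPM in CTX KO and 1544 ± 130 CPM in CTX WT, against 1559 ± 62.5 CPM in normal KO and 1525 ± 104 CPM in normal WT.

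Among the 5 V-ATPase subunits, Atp6v0d1, Atp6v1a, Atp6v1b2 and Atp6v1h rose in both genotypes, under either scaling, and Atp6v0d2 was not called. Atp6v1h, the regulatory H subunit of the cytosolic V1 part, was at 386, 368, 350 and 329 CPM in CTX KO and 393, 379, 373 and 432 CPM in CTX WT libraries. In normal muscle it was at 84.4, 69.7, 119 and 85.7 CPM in KO and 77.0, 183, 114 and 100.4 CPM in WT libraries. All CTX libraries were above all normal ones, of which WT library 3 was the highest, and the difference was log2 2.0 in KO (SE 0.21, edgeR adjusted p = 5.73e-07) and 1.73 in WT (SE 0.21, edgeR adjusted p = 2.45e-06). Atp6v1a, the catalytic A subunit, averaged 580 ± 68.6 CPM in CTX KO and 639 ± 27.7 CPM in CTX WT, against 181 ± 77.5 CPM in normal KO and 229 ± 67.5 CPM in normal WT, log2 1.68 in KO and 1.48 in WT. Atp6v1b2, the B subunit of the catalytic ring, had log2 differences of 1.36 in KO and 1.17 in WT.

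The d subunit, which couples the V1 part to the membrane part, is encoded by Atp6v0d1 and Atp6v0d2. Atp6v0d1, the widely expressed form, was at 298, 314, 282 and 281 CPM in CTX KO and 290, 304, 285 and 309 CPM in CTX WT libraries. It was at 105, 92.3, 140 and 110 CPM in normal KO and 93.2, 154, 138 and 118 CPM in normal WT libraries. The groups did not overlap, and the difference was log2 1.39 in KO and 1.24 in WT (SE 0.14 each, edgeR adjusted p = 3.9e-07 and 1.33e-06). Atp6v0d2, a form known from osteoclasts and macrophages, was at 18.8, 14, 18 and 22.2 CPM in CTX KO and 15.6, 9.26, 11.4 and 23.1 CPM in CTX WT libraries. It was at 7.70, 10.3, 21.4 and 18.5 CPM in normal KO and 14.4, 33.8, 9.17 and 7.47 CPM in normal WT libraries. Its 4 groups overlapped throughout, normal WT library 3 being the highest of all 16, and the difference was log2 0.34 in KO (95% interval -0.56 to 1.24, edgeR adjusted p = 0.481) and -0.12 in WT (-1.03 to 0.78, edgeR adjusted p = 0.801). A difference between the responses of the 2 genes was not tested.

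Of the 3 MiT factors, Tfe3 and Mitf rose and Tfeb fell in both genotypes, with Tfe3 at a log2 difference of 0.10 in KO and -0.0014 in WT, called in neither, when libraries were scaled by totals alone. Tfeb, the best known activator of lysosomal genes, was at 43.8, 44.6, 46.0 and 47.0 CPM in CTX KO and 48.4, 44.9, 29.5 and 43.4 CPM in CTX WT libraries. It was at 74.0, 75.8, 65.7 and 67.9 CPM in normal KO and 77.0, 53.7, 59.5 and 61.0 CPM in normal WT libraries. The CTX libraries were below the normal ones in both genotypes, CTX WT library 3 being the lowest, and the difference was log2 -0.64 in KO and -0.60 in WT (SE 0.13 each, edgeR adjusted p = 0.000433 and 0.000874). Tfe3, its relative with overlapping targets, was at 227, 235, 209 and 223 CPM in CTX KO and 240, 247, 211 and 212 CPM in CTX WT libraries. In normal muscle Tfe3 was at 107, 123, 155 and 166 CPM in KO and 124, 158, 160 and 153 CPM in WT libraries. Its CTX libraries were all above its normal ones, with log2 0.70 in KO and 0.61 in WT (SE 0.13 each, edgeR adjusted p = 0.000157 and 0.000524).

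Mitf, the founding member of the family, known from melanocytes and osteoclasts, was at 65.7, 62.0, 74.7 and 61.8 CPM in CTX KO and 70.8, 69.5, 75.7 and 59.6 CPM in CTX WT libraries. It was at 25.6, 25.2, 31.5 and 38.1 CPM in normal KO and 26.2, 38.1, 37 and 30.5 CPM in normal WT libraries. The groups did not overlap, and the difference was log2 1.13 in KO and 1.06 in WT (SE 0.14 each, edgeR adjusted p = 3.43e-06 and 6.79e-06). Per kilobase of exon, Tfe3 was the most abundant of the 3 factors in every group, at 24.1 and 24.6 CPM per kb in CTX KO and CTX WT and 14.9 and 16.1 CPM per kb in normal KO and normal WT. These are transcript levels only, and the factors are also controlled by phosphorylation and by their place in the cell, which counts do not measure. Of the 6 genes with TCACGTGA in the promoter window, 5 were called higher in each genotype and Mcoln1 was not, with a median log2 of 1.54 in KO and 1.33 in WT. Of the 25 genes whose windows lacked those letters, 14 were higher and 5 lower in KO (median 0.46). In WT 13 were higher and 5 lower (median 0.49). Among all genes tested, 33.3% were higher and 40.2% lower in KO, and 33.3% higher and 39.4% lower in WT. The 6 unmatched genes, of which M6pr, Npc1, Atp6v1b2 and Atp6v1h rose in both genotypes, are in neither set. Scaled by totals alone, Cln3 turned negative with no call and Mcoln1 was called lower, in both genotypes. The difference between the sets was not tested.

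**Figure D3:**
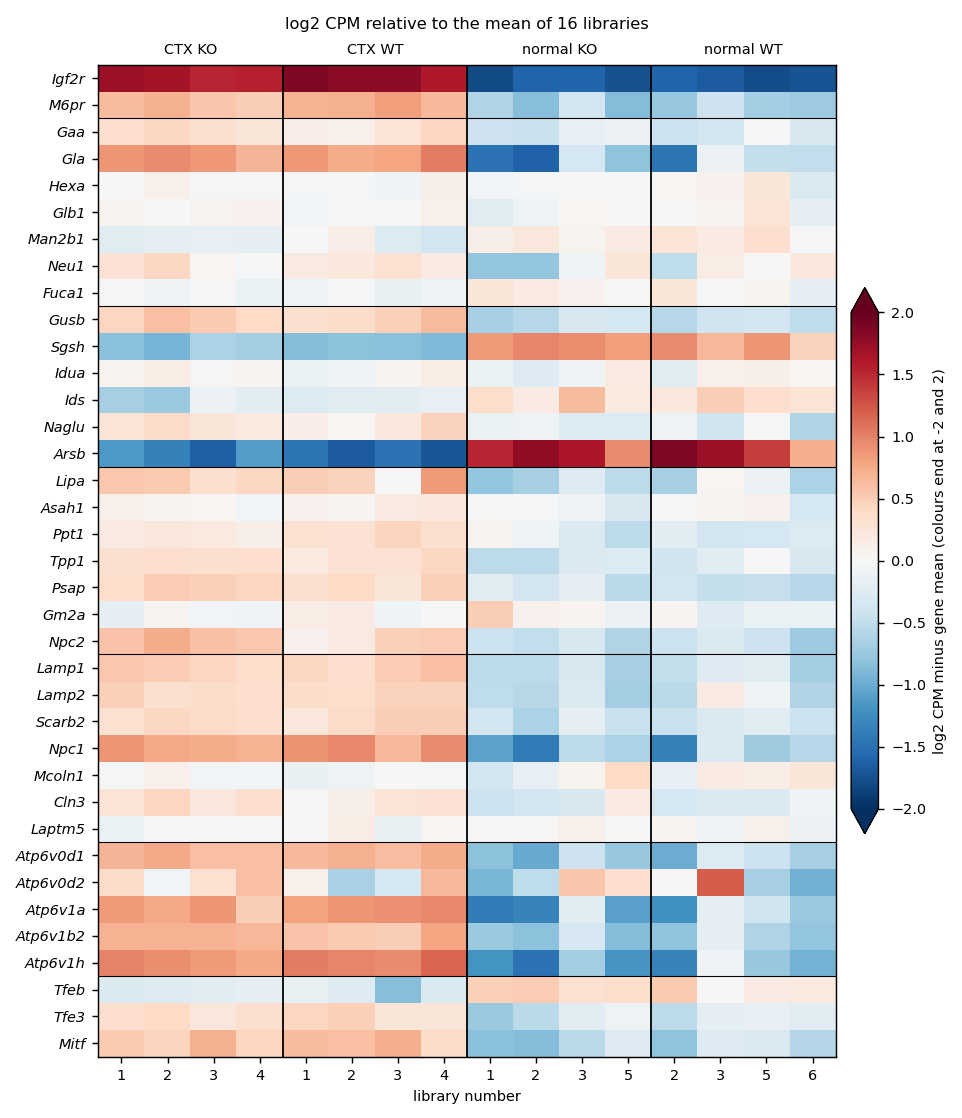
Each gene's log2 CPM in each of the 16 libraries minus its mean over all 16, by role from top to bottom, with the colour scale ending at -2 and 2; the 8 CTX libraries are on the left and the 8 normal libraries on the right. Igf2r is dark red across CTX-injected muscle and Arsb dark blue there, and in normal muscle the libraries numbered 3 are paler than those numbered 2 for Atp6v0d1, Atp6v1a, Atp6v1b2 and Atp6v1h.

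The injury differences of the genotypes were also set side by side. Across the 37 genes, the log2 differences in KO and in WT, which share no libraries, had a Pearson r of 0.985, a description over genes that are not independent. CTX and normal libraries did not overlap for 22 members that were higher and 6 that were lower in KO, against 31.3% and 35.5% of all genes, and for 21 and 4 in WT, against 30.6% and 34.9%. The summed level of the 37 was 22339 to 23980 CPM in CTX KO and 21778 to 24187 CPM in CTX WT, against 13531 to 16027 CPM in normal KO and 13075 to 15243 CPM in normal WT libraries. Without Psap, the sum was 13331 to 14408 CPM in CTX KO and 13832 to 14835 CPM in CTX WT libraries. In normal muscle that sum was 8904 to 10141 CPM in KO and 8587 to 10427 CPM in WT libraries. All these sums carry the TMM factors and were not taken with library totals alone. Under library totals alone, the median log2 difference of the members was 0.005 in KO and -0.09 in WT. The median SD of log2 CPM was 0.078 in CTX KO, 0.118 in CTX WT, 0.182 in normal KO and 0.199 in normal WT for the members, against 0.172, 0.208, 0.275 and 0.264 over all genes, a comparison that does not allow for the members' expression levels.

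In normal muscle, the libraries numbered 2 and 3 often held the extreme values in KO and WT alike. The library numbered 3 was the highest of its group in both genotypes for 12 members, which were M6pr, Gla, Ids, Lipa, Npc2, Lamp2, Npc1 and all 5 V-ATPase subunits. The library numbered 2 was the lowest of its group in both genotypes for 9 members, among them Gla, Npc1, Atp6v1h and Mitf, and the highest in both for Sgsh, Arsb and Tfeb. The library numbered 5 was the highest in both for 5 members and the lowest in both for 0, being lowest for 14 in KO and 1 in WT. Shares over all genes are not given for these counts. The summed neutrophil markers were 2018, 6617, 1581 and 239 CPM in normal KO libraries 1, 2, 3 and 5, and 4498, 1451, 882.7 and 287 CPM in normal WT libraries 2, 3, 5 and 6. Their part in this spread was not tested.

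Other genes of the same pathways, from lists drawn up for this comparison, are given by their counts, to be read against the 33.3% higher and 40.2% lower in KO and the 33.3% higher and 39.4% lower in WT among all genes tested. Of 20 other V-ATPase genes, 14 were tested, and 11 rose and 2 fell in KO and 10 rose and 2 fell in WT. Their median log2 difference was 1.08 in KO and 1.06 in WT, against -0.16 and -0.15 over all genes. Atp6v1c1 (log2 2.21 in KO, 1.85 in WT) and Atp6v1e1 (1.74 in KO, 1.72 in WT), subunits of the V1 part, rose most in WT, and Atp6v0e2 and Atp6v1g2, both under 3 CPM on average in every group, fell. Of 24 genes for tagging, sorting and retrieval of hydrolases, 17 rose and 4 fell in KO and 17 rose and 5 fell in WT (33.3% and 40.2% of all genes in KO, 33.3% and 39.4% in WT). Gnptab, the catalytic precursor of the enzyme that makes the mannose 6-phosphate tag, averaged 175 ± 14.3 CPM in CTX KO and 171 ± 14.6 CPM in CTX WT, against 43.0 ± 5.51 CPM in normal KO and 46.2 ± 6.45 CPM in normal WT. Vps29, a subunit of the retromer that returns receptors to the Golgi, rose by log2 1.84 in KO and 1.71 in WT, while Sort1, the alternative sorting receptor sortilin, fell (-1.20 in KO, -0.86 in WT), as did Cln6, an endoplasmic reticulum protein (-0.63 in KO, -0.62 in WT).

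Of 31 other hydrolases tested, 11 were higher and 10 lower in KO and 11 higher and 11 lower in WT, near the shares over all genes (33.3% and 40.2% in KO, 33.3% and 39.4% in WT). Lgmn, the asparaginyl endopeptidase (log2 1.85 in KO, 1.84 in WT), and Galns rose most in WT, and Gba2, a glucosylceramidase outside the lysosome (-1.43 in KO, -1.34 in WT), and Siae, a sialic acid esterase (-1.13 in KO, -1.28 in WT), fell most. Of 25 other membrane genes, 11 rose and 8 fell in KO and 11 rose and 7 fell in WT, against 33.3% and 40.2% of all genes in KO and 33.3% and 39.4% in WT. The median log2 difference of these genes was 0.19 in KO and 0.04 in WT. Slc11a1, the phagosomal metal transporter, rose (log2 2.02 in KO, 1.92 in WT), and the TRPML channel gene Mcoln3 (-3.55 in KO, -3.38 in WT) and Slc38a9, a lysosomal amino acid transporter and sensor (-1.47 in KO, -1.74 in WT), fell.

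Of 18 genes of lysosomal mTORC1 signalling and its folliculin arm, which control the MiT factors, 11 rose and 1 fell in KO and 9 rose and 1 fell in WT, against 33.3% and 40.2% of all genes in KO and 33.3% and 39.4% in WT. Fnip2, a partner of folliculin, averaged 672 ± 81.5 CPM in CTX KO and 815 ± 81.9 CPM in CTX WT, against 60.1 ± 35.7 CPM in normal KO and 82.9 ± 64.4 CPM in normal WT, log2 3.48 in KO and 3.30 in WT. Lamtor3, a scaffold subunit of Ragulator, rose by log2 1.41 in KO and 1.19 in WT, and Rragb, a Rag GTPase at under 2 CPM on average in every group, was the one that fell. Of 24 autophagy genes, 14 rose and 3 fell in KO and 12 rose and 3 fell in WT, against the same shares of all genes (33.3% and 40.2%, 33.3% and 39.4%). Sqstm1, the autophagy receptor p62 (log2 2.08 in KO, 1.90 in WT), and Gabarapl1, an autophagosome coat protein (1.34 in KO, 1.30 in WT), rose, while Calcoco1 (-1.49 in KO, -1.62 in WT) and Atg16l1 (-0.63 in KO, -0.62 in WT) fell.

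KO against WT addressed whether the loss of Glud1 changed the same transcripts. In CTX-injected muscle, edgeR called 0 of the 37 genes, against 0.00733% of all genes tested, and DESeq2 called 0. The log2 differences KO over WT lay between -0.18 and 0.30 with a median of -0.01, and 36 of the 37 intervals lay within a 2-fold change in either direction. Npc2 was the 1 member with an unadjusted p under 0.05, against 6.67% of all genes. Its values were above WT in every KO library, with a log2 difference of 0.29 (SE 0.12, 95% interval 0.04 to 0.55, unadjusted p = 0.0273), which did not pass adjustment (edgeR adjusted p = 0.682). Ppt1 was the other member whose groups did not overlap, lower in KO by a log2 difference of -0.16 (edgeR adjusted p = 0.913), so that 2 of 37 did not overlap, against 5.7% of all genes. Igf2r had -0.15 (95% interval -0.33 to 0.03, edgeR adjusted p = 0.871).

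In normal muscle, edgeR called 0 of the 37, against 0.0% of all genes, none had an unadjusted p under 0.05 (2.86% of all genes), none had groups that did not overlap (1.08% of all genes), and DESeq2 called 0. The log2 differences lay between -0.42 for Gla and 0.26 for Gm2a, with a median of -0.06. Of the 37, 25 were negative. That count was 16, and the median 0.02, with libraries scaled by totals alone. Atp6v1h had -0.40 (95% interval -0.84 to 0.04, edgeR adjusted p = 0.991) and Gla had an interval of -0.97 to 0.13. The difference between the injury responses of the genotypes was called for 0 of the 37 by edgeR, against 0.0% of all genes, with 0 at an unadjusted p under 0.05 (4.73% of all genes) and 0 by DESeq2. It lay between -0.38 for Gm2a (unadjusted p = 0.0544) and 0.46 for Atp6v0d2 (95% interval -0.81 to 1.74), and 35 of 37 intervals lay within a 2-fold change. Neu1, called in KO alone, had a difference of 0.24 (95% interval -0.37 to 0.86). The median half-width of the intervals of KO against WT was 0.255 on the log2 scale in CTX-injected and 0.253 in normal muscle, in the fit without pairing.

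KO and WT libraries of normal muscle that carry the same number formed 3 pairs. KO was below WT in all 3 pairs for 15 of the 37 genes, against 16.8% of all genes tested. These were Gla, Hexa, Glb1, Man2b1, Arsb, Lipa, Asah1, Tpp1, Npc2, Lamp1, Lamp2 and the V-ATPase genes Atp6v0d1, Atp6v1a, Atp6v1b2 and Atp6v1h. KO was above WT in all 3 pairs for 1 gene, Gm2a, against 14% of all genes. With libraries scaled by totals alone the counts turned round, with KO below WT in all 3 pairs for 3 members, Gla, Arsb and Atp6v1h (8.32% of all genes), and above WT for 8 (23.9% of all genes). With the number as a block within normal muscle, the log2 difference was -0.39 for Atp6v1h, -0.36 for Lamp2 and -0.25 for Gla, and edgeR called 0 of the 37 (adjusted p = 0.415, 0.438 and 0.606 for these genes). This count was chosen after the values were seen, and the members share their libraries, so it is a description with no test.

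**Figure D4:**
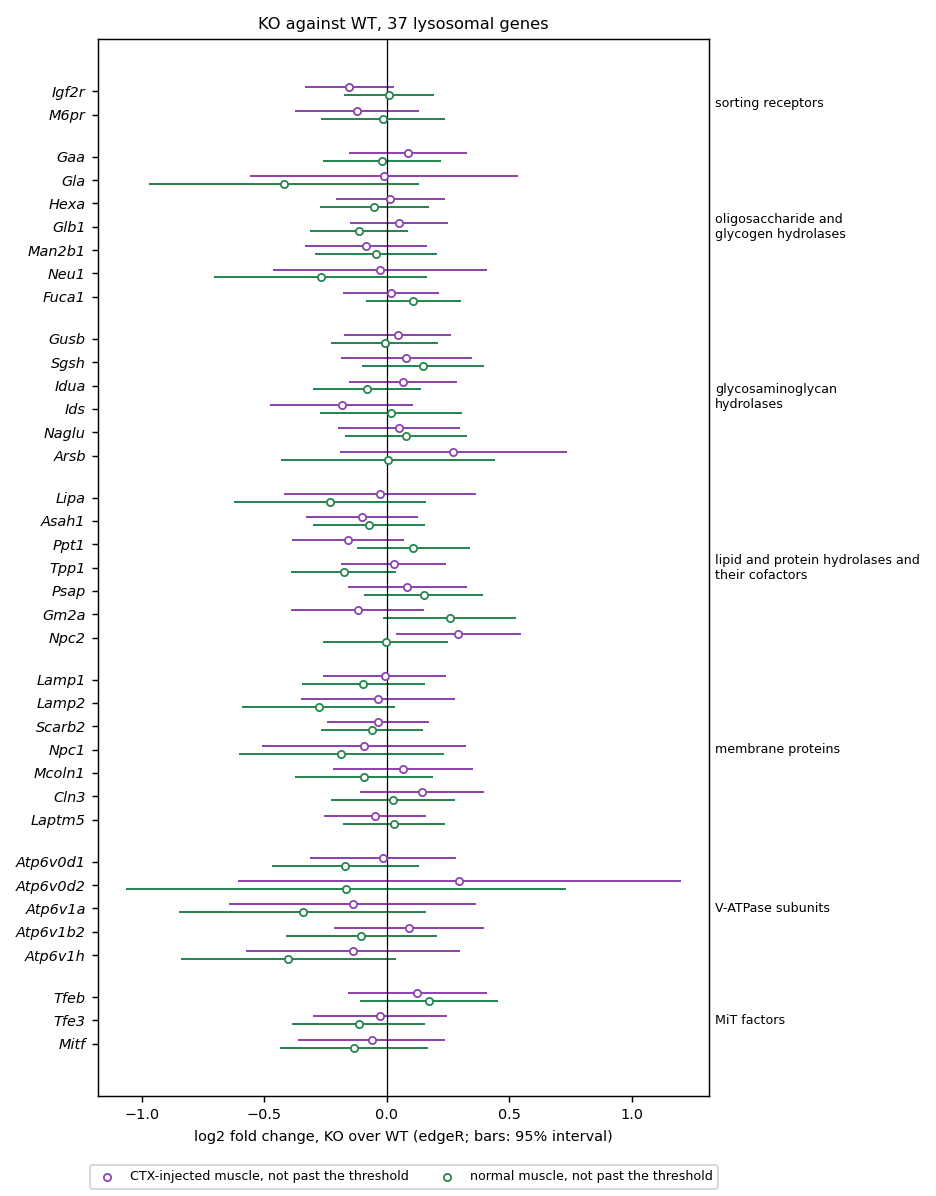
Log2 fold change of KO over WT for the 37 genes by role, in CTX-injected muscle (purple, upper of each pair) and normal muscle (green, lower), with 95% intervals from edgeR; open points did not reach an adjusted p of at most 0.05. No point is filled, the Npc2 interval in CTX-injected muscle (0.04 to 0.55) is the one that lies apart from 0, and Atp6v0d2 has the widest intervals.

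Some levels carry a limit from counting. Exons of 8 of the 37 genes overlap exons of another gene in the table, and without strand information reads from opposite strands there cannot be told apart. The overlap took 21.6% of the exon length of Sgsh (with Card14), 12.8% of Hexa (Tmem202), 9.31% of Lamp1 (Grtp1), 7.65% of Cln3 (Apobr), 5.49% of Glb1 (Tmppe, on the same strand), and 1.3% of Atp6v1h (Rgs20), besides Idua and Ppt1 above. Card14 averaged at most 0.129 CPM in every group, Rgs20 at most 0.0308 CPM and Grtp1 at most 1.36 CPM. The normal libraries KO 5, WT 5 and WT 6 came from female mice by Xist and Y-linked transcripts, and the other 13 from males. Without the female libraries the calls of the members were unchanged except for Fuca1, which was then called lower in KO (log2 -0.25). That fit kept normal KO libraries 1, 2 and 3 and normal WT libraries 2 and 3. Its lack of calls in KO against WT in normal muscle therefore rests on few libraries.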

How the data were processed

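RNA of F4/80+ muscle macrophages was sequenced in 16 libraries of 4 groups, prepared with a Qiagen micro kit and SMART-Seq V4, per the labels' protocols. The authors deposited raw read counts for each symbol. FastQC 0.11.7, cutadapt 1.18, HISAT2 2.1.0, featureCounts (Subread 1.6.2) and mm10 are named in the submitters' processing notes; the annotation and the handling of multi-mapping reads are not given in the sources used here.

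Genes were filtered with filterByExpr (13649 kept), scaled by TMM and tested with edgeR 4.0.16's quasi-likelihood test in R 4.3.3, fitted to the 4 group means of all 16 libraries, with p-values adjusted by Benjamini-Hochberg over all genes (threshold 0.05). Intervals are at 95% and come from the same fit. The scripts were tested on simulated data. Reads carry no molecular identifiers, so counting error understates the error of a level. Values in every library were given for the receptors, Lamp1, Lamp2, Atp6v0d1, Atp6v0d2, the MiT factors, the largest rise and fall of each role and the 3 smallest p of KO against WT in CTX-injected muscle; 2 rises and 2 falls were named per pathway list, except that some genes are not reported here. The members, lists and rules were chosen with earlier results of these data known. Loci and exon lengths came from GENCODE M21 (GRCm38) and promoters from RefSeq.

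In normal muscle the numbers were taken to pair libraries in the count of pairs and in the fits with a block by number. The main fit, with its p-values and intervals, did not pair them. Same-numbered normal KO and WT libraries deviated together (r = 0.644, 0.568 and 0.244 for numbers 2, 3 and 5). Some libraries of unlike number did so too. KO 5 had r = 0.588 with WT 6, above its 0.244 with WT 5, and KO 1 had 0.467 with WT 2. The correlations therefore do not single out the pair of number 5. In CTX-injected muscle same-numbered libraries did not (r between -0.124 and 0.0046). Alternatives were other scalings and filters, DESeq2 1.42.0, male libraries only, a replicate block and leaving out each library.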

Additional observations from a re-analysis of the deposited data

Results flagged for a closer look

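In 148 groups of 4 libraries (37 genes in 4 groups), 3 had 1 library far from the other 3 by Dixon's test at 95%, where chance gives about 5% of groups. Ppt1 was at 320.73 CPM in CTX WT library 3, against 288.82 to 293.72 CPM in the other CTX WT libraries. Mcoln1 was at 62.436 CPM in CTX KO library 2, against 55.988 to 56.96 CPM in the other CTX KO libraries. Cln3 was at 105.58 CPM in normal KO library 5, one of the 3 libraries from female mice, against 70.507 to 76.002 CPM in the other normal KO libraries. Leaving out any 1 of these libraries ended no call of these 3 genes and gave none to Mcoln1.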

How the results depend on the processing

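Scaling by library totals alone moved the injury results most. It gave 1920 genes higher and 8398 lower in KO and 1944 and 8349 in WT, so that 18.6% and 18.9% of calls were higher in place of 45.3% and 45.8%. Of the members it called 13 higher and 13 lower in KO and 11 higher and 13 lower in WT, and it turned the log2 difference to -0.1271 for Neu1, -0.1522 for Naglu, -0.2453 for Ppt1 and -0.0665 for Cln3 in KO, and to -0.1068 for Gaa, -0.1271 for Naglu, -0.0913 for Tpp1, -0.1944 for Cln3 and -0.0014 for Tfe3 in WT. A filter of 5 CPM in 4 libraries left 8 members lower in KO. It added lower calls of Fuca1, Gm2a and Laptm5 in KO and of Fuca1 and Mcoln1 in WT. It ended the calls of Neu1 and Ppt1 in KO and of Cln3 in WT. Under this filter the log2 differences of the genes shared with the main fit moved by a median of -0.174 in KO and -0.167 in WT. The part of this move in the member calls was not tested. RLE size factors, DESeq2 and no filter changed 1 or 2 member calls per genotype at most. Leaving out each library changed 12 of 592 member results in KO and 4 of 592 in WT, with no change of sign among called members. With the replicate block, 4510 genes rose and 5217 fell in KO and 4280 and 4763 in WT; it added a fall of Fuca1 in KO and a rise of Neu1 in WT. In KO against WT in CTX-injected muscle, edgeR called 1 gene higher and 0 lower, DESeq2 called 17 and 26, male libraries only gave 1 lower, the replicate block 1 lower, and leaving out a library 0 to 1 lower. For the interaction, DESeq2 called 9 higher and 39 lower, male libraries only 1 lower, and leaving out a library 0 to 1 higher and 0 to 2 lower (2 without normal KO library 5). No member was called in KO against WT or in the interaction under any of these alternatives. Nor was any called under a block by number within normal muscle, which was added after seeing the data and changed no other call. Sgsh, at 4.87 to 5.98 CPM in CTX-injected muscle, had the lowest levels of the 37.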
